A study of Mus musculus with 2 samples.

Results

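The genes described here encode the nuclear subunits of respiratory complexes I, II and III, measured in the fetal mouse ear at E18.5. They were taken by symbol: Ndufa, Ndufb, Ndufc, Ndufs, Ndufv and Uqcr genes and Sdha to Sdhd, without the Ndufaf assembly factors, each with at least 1 probe set that the platform annotation pairs with that gene alone. This gave 48 genes of the 19938 that had such a probe set. Total RNA came from a BALB/c double knockout, null for Myf5 and Myod, and from wild-type BALB/c, both at E18.5, and each genotype had 1 array. Myf5 and Myod1 encode transcription factors with which cells enter the skeletal muscle lineage. The labels leave unsaid the part of the ear taken, the alleles, and if RNA of several embryos was pooled. No difference below therefore has a replicate check.

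The respiratory chain of the inner mitochondrial membrane passes electrons from food molecules to oxygen. Complex I takes electrons from NADH and complex II takes them from succinate, both hand them to coenzyme Q, and complex III passes them on to cytochrome c, while complexes I and III pump protons that drive ATP synthesis. Skeletal muscle is rich in mitochondria, as are heart and brown fat, and nearly every other cell type also uses this chain. The subunits of complex I fall into a core that carries the redox groups and a larger set of accessory subunits around it.

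The respiratory chain genes read nearly alike in the double knockout and the wild type, on arrays whose skeletal muscle markers were many times lower in the double knockout. All 48 genes lay above the floor on both arrays, the floor being the median of all probe sets on each array, and 40 lay above the 75th percentile on both. Their median difference, as the log2 signal in the double knockout less that in the wild type, was 0.00, beside -0.01 over the 12458 genes that passed the floor on 1 array or both. At 2-fold, 0 of the 48 were lower in the double knockout and 0 were higher, where 1.71% of all genes were lower and 0.482% were higher. At a smaller threshold, a difference of 0.32 or more on the log2 scale, 2 of the 48 were lower, against 9.49% of all genes, and 0 were higher, against 7.99%. The 2 genes were Ndufa4l2 and Ndufb2. Of the 48, 23 were below 0 and 25 above it, while 50.8% of all genes were below 0. The differences of the 48 genes had an SD of 0.155, beside 0.344 for the 11626 genes that passed the floor on both arrays and 0.252 for the 5527 above the 75th percentile on both.

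For scale, the differences of probe sets of the same gene varied with an SD of 0.168, and 37 of the 48 genes lay nearer to 0 than that, as did 58.4% of all genes. This SD holds no variation between animals.

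Some markers of other cell types differed between the arrays. All 15 skeletal muscle markers were lower in the double knockout, 14 of them at least 2-fold, with a median of -5.07 after low values were raised to the floor. Myl1, a myosin light chain of fast muscle, read 6.26 in the double knockout and 11.86 in the wild type, and Acta1, the skeletal actin, read 5.73 in the double knockout and 12.19 in the wild type. Of the brown fat markers, 5 of 8 went the other way, higher by 0.32 or more, against 7.99% of all genes, and the median was 0.45. The other 3, Ppargc1a, Prdm16 and Dio2, named after their values were seen, differed by -0.03, 0.07 and 0.08. The other probe set of Ppargc1a differed by -0.57. Ucp1, which lets brown fat make heat, read 11.29 in the double knockout and 10.03 in the wild type. Of 7 heart markers, 3 passed the floor on 1 array or both. Myl4 read 6.40 in the double knockout and 10.95 in the wild type, and Myl2 read 4.25, below the floor, in the double knockout and 7.12 in the wild type; both are also made in skeletal muscle. Nkx2-5, a transcription factor of the heart, read 6.25 in the double knockout and 5.70 in the wild type. The other 4, Myh6, Nppa, Myl7 and Tnni3, picked once their values had been seen, were below the floor on both arrays. The inner ear markers were present, with a median of 0.01 over 8 genes, and Oc90, a matrix protein of otoconia, had 11.26 in the double knockout and 11.28 in the wild type. They ran from -0.19 in Otog to 0.321 in Coch, just under the smaller threshold, which is 0.322 to 3 digits. Otoa and Atoh1, named after their values were seen, had exactly the same value on both arrays. Of the targeted genes, Myod1 read 6.38 in the double knockout and 6.95 in the wild type, and Myf5 read 5.25, below the floor, in the double knockout and 5.94 in the wild type. Whether their probe sets lie in the deleted parts is not stated. In tissue RNA of this kind, fewer cells of a type and less RNA per cell cannot be told apart, and the part of muscle loss or brown fat in the values of the respiratory chain genes was not tested.

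**Figure D1:**
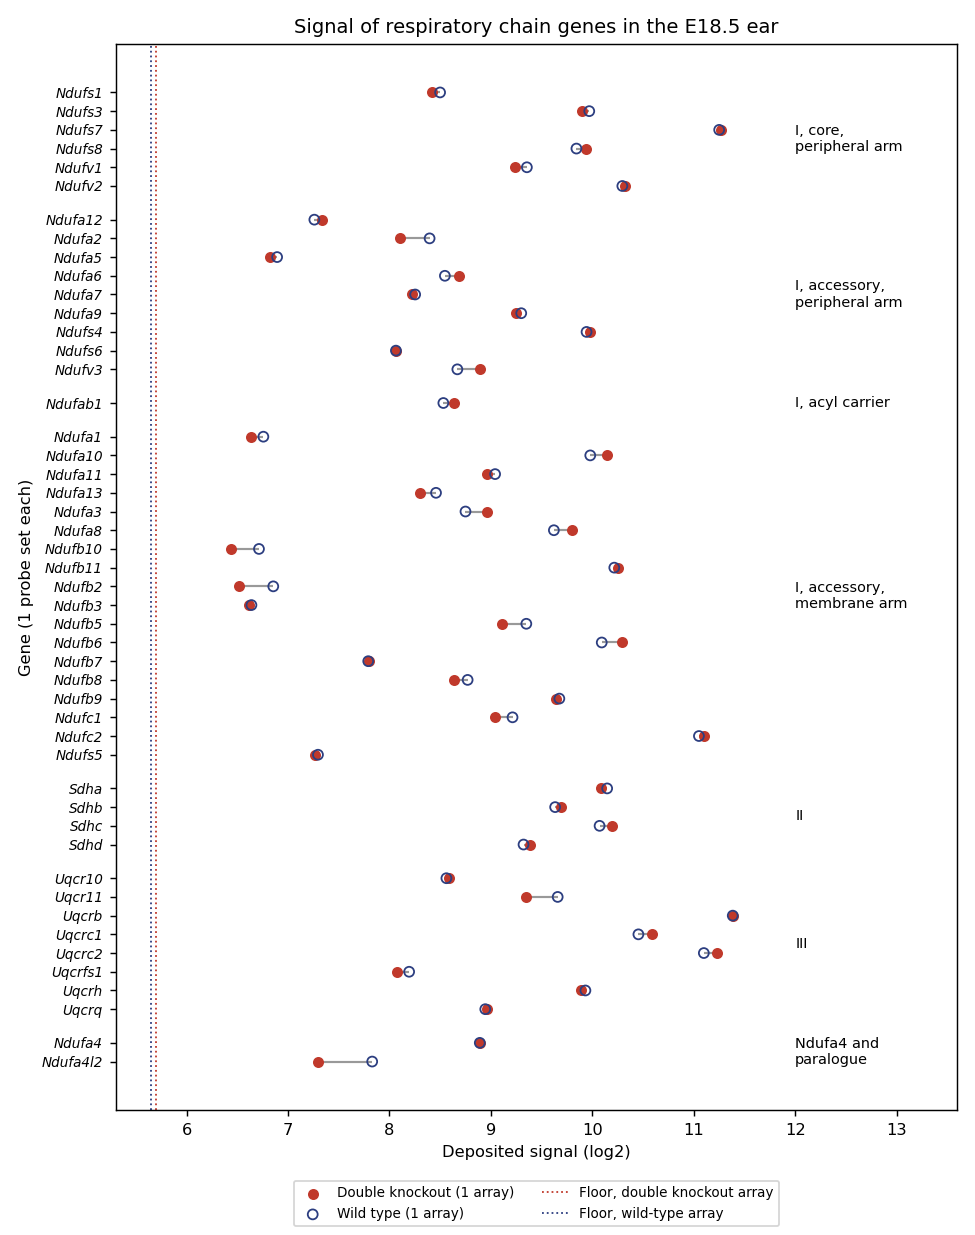
Deposited log2 signal of the 48 respiratory chain genes, with 1 filled point for the double knockout array and 1 open point for the wild-type array, and the floor of each array (5.70 and 5.65) as a dotted line. The points of a gene lie close together in nearly every row, and Ndufa4l2 at the foot has the widest gap. Signals of different genes come from different probes and are not to be compared with each other.

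Many nuclear genes of the chain carry short binding sequences for the transcription factors NRF1, GABP, YY1 and the estrogen-related receptors (ERR) near their starts. RefSeq gave promoter windows in GRCm38.p6 for 40 of the 48 genes. Each window was searched on both strands for the letters GCATGCGC (NRF1), CCGGAAG (GABP), AAGATGGC (YY1) and AAGGTCA (ERR). The NRF1 letters stood in 6 of the 40 genes and in 3.05% of the 27025 genes with a window. The GABP letters stood in 8 of the 40 and in 9.93% of all genes, the YY1 letters in 7 of the 40 and in 3.19% of all genes, and the ERR letters in 3 of the 40 and in 5.38% of all genes. The NRF1 letters nearly read the same on both strands, so in Uqcrc1 and Ndufa11 overlapping matches were counted as 1 gene. A match of letters is a description and not evidence of a bound factor.

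The YY1 letters are shown for all 7 genes because they stood in nearly the same place, with 10 bases before and 4 after. Capitals mark the letters searched. These letters contain ATG, as a start codon does, and whether translation starts there in these genes was not tested. In each gene they were on the strand of the gene and began 23 to 39 bases after the start, and over all promoter windows 17.6% of 927 matches began on that strand from 20 to 40 bases after the start.
Ndufc1 (chr3:51408922-51408943, minus strand): cctgcggaacAAGATGGCgccg
Ndufa3 (chr7:3617385-3617406, plus strand): cgccaagaacAAGATGGCcggg
Ndufs7 (chr10:80249463-80249484, plus strand): ggccgaggccAAGATGGCggcg
Ndufa9 (chr6:126849104-126849125, minus strand): attgtgggagAAGATGGCggcc
Ndufs6 (chr13:73328438-73328459, minus strand): ggtcaccggcAAGATGGCggcg
Ndufs4 (chr13:114388048-114388069, minus strand): tgcctacaggAAGATGGCggcg
Ndufb8 (chr19:44555393-44555414, minus strand): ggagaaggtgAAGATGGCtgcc

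The 7 genes with the YY1 letters had a median difference of 0.00 and ran from -0.18 in Ndufc1 to 0.21 in Ndufa3. The genes with the NRF1 letters had a median of 0.10 and ran from -0.31 in Uqcr11 to 0.18 in Ndufa8. Those with the GABP letters had a median of 0.04, from -0.31 in Uqcr11 to 0.20 in Ndufb6. The 3 with the ERR letters, Ndufb2, Ndufs5 and Sdhd, were at -0.34, -0.02 and 0.06. Genes that shared letters thus lay on both sides of 0 in every group. The next 4 windows show this in 2 pairs, chosen after the values were seen. Uqcr11 and Sdhb both hold the NRF1 and GABP letters, and Ndufb2 and Sdhd both hold those of ERR. By the brightest probe set, the first of each pair was lower in the double knockout and the other close to 0. The other probe set of Uqcr11 differed by -0.09, and Ndufb2 ran from -0.35 to -0.21 when the values were processed in other ways. The contrast within each pair thus rests on the probe set or the processing. Uqcr11 lies at chr10:80406772-80407071 on the minus strand, Sdhb at chr4:140961021-140961320 on the plus strand, Ndufb2 at chr6:39592315-39592614 on the plus strand and Sdhd at chr9:50603800-50604099 on the minus strand, all in GRCm38.p6, with capitals for any of the letters searched.
Uqcr11: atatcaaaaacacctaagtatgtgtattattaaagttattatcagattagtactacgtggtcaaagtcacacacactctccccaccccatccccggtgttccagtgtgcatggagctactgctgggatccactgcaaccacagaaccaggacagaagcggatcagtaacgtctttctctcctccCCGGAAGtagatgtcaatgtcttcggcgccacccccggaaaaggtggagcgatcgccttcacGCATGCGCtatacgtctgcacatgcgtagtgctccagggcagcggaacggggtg
Sdhb: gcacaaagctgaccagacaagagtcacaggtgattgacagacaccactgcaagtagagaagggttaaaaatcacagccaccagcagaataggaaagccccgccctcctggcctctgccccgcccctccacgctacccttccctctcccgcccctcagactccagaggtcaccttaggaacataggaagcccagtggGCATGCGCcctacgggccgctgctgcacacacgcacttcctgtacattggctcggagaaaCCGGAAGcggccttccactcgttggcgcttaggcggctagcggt
Ndufb2: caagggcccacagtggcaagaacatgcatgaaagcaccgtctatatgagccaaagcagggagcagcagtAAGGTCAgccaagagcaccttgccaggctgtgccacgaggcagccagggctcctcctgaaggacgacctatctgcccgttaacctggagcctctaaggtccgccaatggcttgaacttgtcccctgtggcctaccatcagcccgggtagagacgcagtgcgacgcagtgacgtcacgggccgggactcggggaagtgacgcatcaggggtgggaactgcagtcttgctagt
Sdhd: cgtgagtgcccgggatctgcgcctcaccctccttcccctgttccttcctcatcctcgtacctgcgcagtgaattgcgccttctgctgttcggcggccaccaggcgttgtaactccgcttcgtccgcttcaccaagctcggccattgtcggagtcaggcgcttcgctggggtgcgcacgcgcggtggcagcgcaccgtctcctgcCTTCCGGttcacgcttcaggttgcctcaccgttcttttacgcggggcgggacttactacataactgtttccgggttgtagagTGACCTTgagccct

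In complex I, 34 genes had a median difference of -0.02, with 18 below 0 and 16 above it, and 33 of them were within 0.32 of it. The 6 core subunits measured, all of the peripheral arm that juts into the matrix, were the most alike on both arrays of the complex I groups with several genes, with an SD of 0.0778. They ran from -0.11 to 0.09, and all 6 lay above the 75th percentile on both arrays. The 40 respiratory chain genes above it had an SD of 0.130, against 0.203 for the 8 others. The part of signal level in the small spread of the core was not tested. Ndufv1, which binds NADH and the flavin that first accepts its electrons, read 9.24 in the double knockout and 9.36 in the wild type. Ndufv2 and Ndufs1 carry iron-sulfur clusters that take the electrons onward. Ndufv2 read 10.32 in the double knockout and 10.30 in the wild type. Ndufs1 read 8.42 in the double knockout and 8.50 in the wild type. Ndufs7 and Ndufs8 carry the clusters nearest to the site where coenzyme Q is reduced, and neither was far from equal. Ndufs7 read 11.27 in the double knockout and 11.25 in the wild type. Ndufs8 read 9.93 in the double knockout and 9.84 in the wild type. Ndufs3, another core subunit, differed by -0.08, and its other probe set by -0.09. Ndufb1, Ndufb4, Ndufb4b and Ndufb4c had no probe set of their own in the annotation and were not counted. Of the subunits of complexes I and III that mitochondrial DNA encodes, ND3 had probe sets of its own, and the brighter read 11.16 in the double knockout and 11.29 in the wild type.

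The 9 accessory subunits of the peripheral arm had a median of 0.00 and ran from -0.29 to 0.23. The ends were Ndufa2 and Ndufv3, both small subunits near the NADH-binding end. Ndufa2 read 8.11 in the double knockout and 8.40 in the wild type, 1.22-fold lower. Ndufv3 read 8.90 in the double knockout and 8.67 in the wild type, 1.17-fold higher. The genes between them were closer to equal. Ndufs4, whose loss in mice causes a fatal brain disease like human Leigh syndrome, read 9.97 in the double knockout and 9.94 in the wild type. Ndufs6, a zinc-binding subunit, read 8.07 in the double knockout and 8.06 in the wild type. Ndufa9, which sits by the coenzyme Q site, differed by -0.05, and Ndufa5, Ndufa7, Ndufa12 and Ndufa6 by -0.07, -0.03, 0.07 and 0.14. Ndufab1, the acyl carrier protein of mitochondria that also serves fatty acid synthesis there, read 8.64 in the double knockout and 8.53 in the wild type, and both of its probe sets differed by 0.10.

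The 18 accessory subunits of the membrane arm were more spread, with a median of -0.03 and differences from -0.34 to 0.21, and 11 of the 18 were below 0. Ndufb2, a small subunit of the far end of this arm, read 6.52 in the double knockout and 6.85 in the wild type, 1.26-fold lower. It was the gene just past the threshold of 0.32, and Uqcr11 of complex III was the nearest one inside it. Ndufb10, one of the subunits that face the space between the membranes, read 6.44 in the double knockout and 6.71 in the wild type, 1.21-fold lower. Ndufb5 read 9.11 in the double knockout and 9.35 in the wild type, 1.18-fold lower. These were the lowest differences of the arm, and Ndufb2 and Ndufb10 were among the 8 respiratory chain genes not above the 75th percentile on both arrays.

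Other subunits of the membrane arm were higher in the double knockout by similar amounts. Ndufa3 read 8.96 in the double knockout and 8.75 in the wild type, 1.16-fold higher. Ndufb6 read 10.29 in the double knockout and 10.09 in the wild type, 1.15-fold higher. Ndufa8, a cysteine-rich subunit on the side of the intermembrane space, read 9.80 in the double knockout and 9.62 in the wild type. Ndufa10, a relative of nucleoside kinases, differed by 0.16, so subunits of the same arm lay on both sides of 0. Ndufc1, Ndufa13 (also known as GRIM-19), Ndufb8 and Ndufa1 differed by -0.18, -0.15, -0.13 and -0.12. The remaining 7, Ndufa11, Ndufb9, Ndufs5, Ndufb3, Ndufb7, Ndufb11 and Ndufc2, lay between -0.08 and 0.05. Ndufa1 and Ndufb11, which are X-linked in mouse and human, were at -0.12 and 0.04.

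Ndufa4 and Ndufa4l2 carry the name of complex I and are counted apart from it here. Ndufa4 was first taken for a complex I subunit and is now placed in complex IV, cytochrome oxidase. It read 8.89 in the double knockout and 8.89 in the wild type. Its paralogue Ndufa4l2, a target of the hypoxia-inducible factor HIF-1 that is known to lower complex I activity when oxygen is short, read 7.29 in the double knockout and 7.83 in the wild type. That is 1.45-fold lower, the largest difference among the 48 genes, and 7.08% of all genes lay further from 0. Ndufa4l2 has 1 probe set. Without Ndufa4 and Ndufa4l2 the other 46 genes had a median of 0.01 and an SD of 0.138.

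Complex II, succinate dehydrogenase, is also an enzyme of the tricarboxylic acid cycle, and its 4 genes lay within 0.32 of 0, from -0.06 to 0.12 with a median of 0.06. Sdha, the flavoprotein that oxidises succinate, read 10.09 in the double knockout and 10.15 in the wild type. Sdhb, its iron-sulfur partner, read 9.69 in the double knockout and 9.63 in the wild type. The anchors in the membrane were on the same side of 0 as Sdhb. Sdhc read 10.19 in the double knockout and 10.07 in the wild type. Sdhd read 9.38 in the double knockout and 9.32 in the wild type. All 4 differences were smaller than the SD of 0.168 between probe sets of the same gene.

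Complex III had a median of 0.01 over 8 genes, with 3 below 0 and 5 above it. The large core proteins Uqcrc1 and Uqcrc2 had almost the same difference. Uqcrc1 read 10.59 in the double knockout and 10.45 in the wild type. Uqcrc2 read 11.23 in the double knockout and 11.10 in the wild type. Uqcrfs1, the Rieske iron-sulfur protein that passes electrons to cytochrome c1, read 8.08 in the double knockout and 8.19 in the wild type. The small subunit Uqcr11 read 9.35 in the double knockout and 9.66 in the wild type, 1.24-fold lower. Its other probe set differed by -0.09, so the size of this difference rests on the probe set chosen. Uqcrb, a subunit at the coenzyme Q site, differed by 0.01, and its other probe sets by 0.02 and -0.03. Uqcrh, known as the hinge protein, differed by -0.04, and the small subunits Uqcrq and Uqcr10 by 0.01 and 0.03. Cyc1, the cytochrome c1 of this complex, is outside the symbols chosen and differed by -0.12. Cycs, the cytochrome c that complex III reduces, differed by 0.01.

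**Figure D2:**
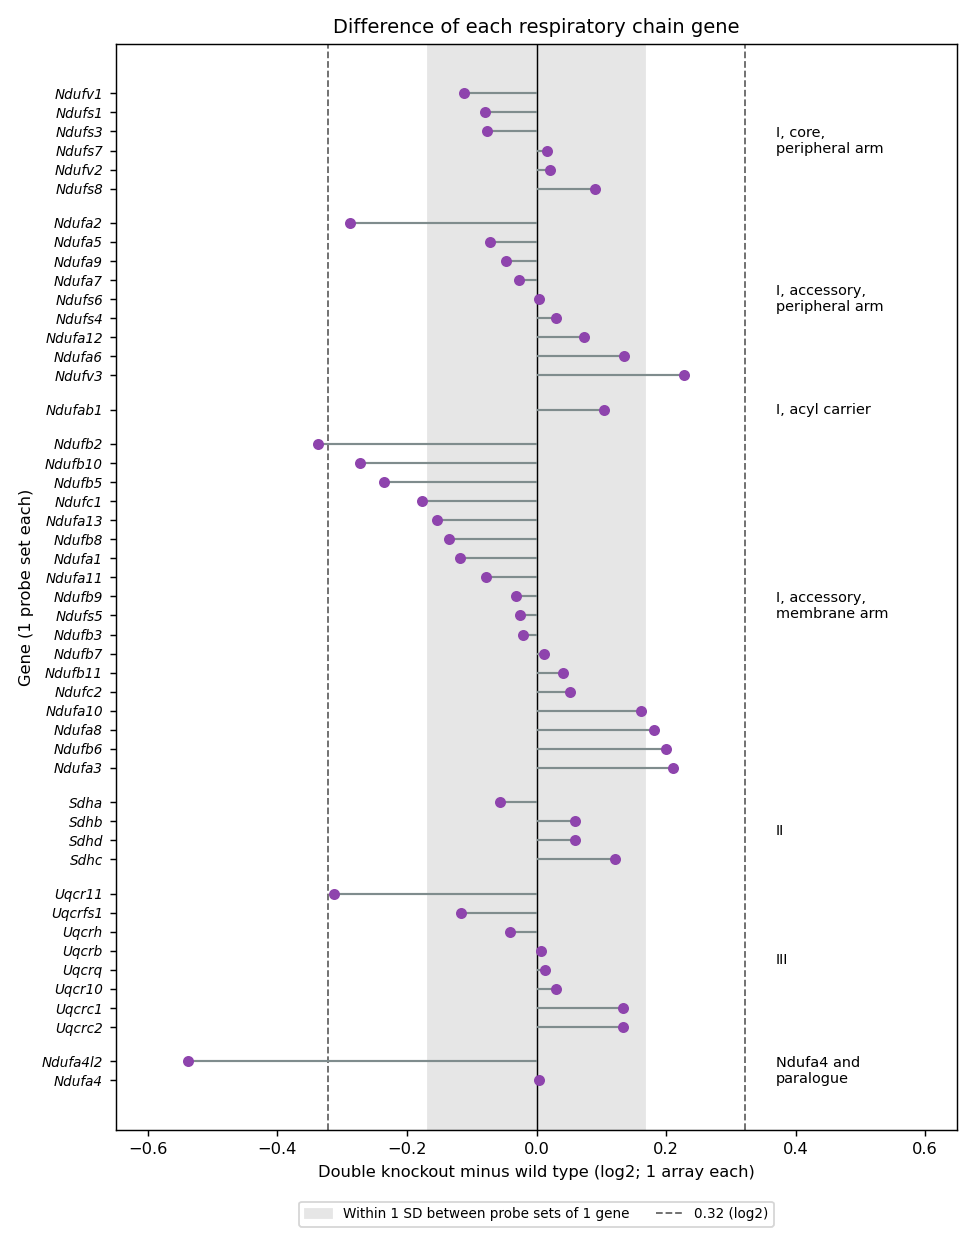
Difference of each of the 48 respiratory chain genes, double knockout minus wild type on the log2 scale, sorted within its group. The grey band is 1 SD between probe sets of the same gene (0.168) and the dashed lines are at -0.32 and 0.32; 37 genes lie within the band, and Ndufb2 and Ndufa4l2 lie past the lower line.

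Of the 48 genes, 7 had more than 1 probe set, and the differences of a gene's probe sets spanned from 0.00 in Ndufab1 to 0.22 in Uqcr11. For Ndufa11, Ndufb11 and Uqcrb the probe sets lay on both sides of 0, within 0.10 of it. Another 3 probe sets were paired with a gene of complex I together with a copy of it and are left out of the counts. The probe sets shared by Ndufb4 and Ndufb4b differed by 0.02 and 0.03. That shared by Ndufs5 and its pseudogene Ndufs5-ps read 6.65 in the double knockout and 6.97 in the wild type, while the probe set of Ndufs5 alone read 7.27 in the double knockout and 7.30 in the wild type. Which copy gave the shared signal was not tested.

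**Figure D3:**
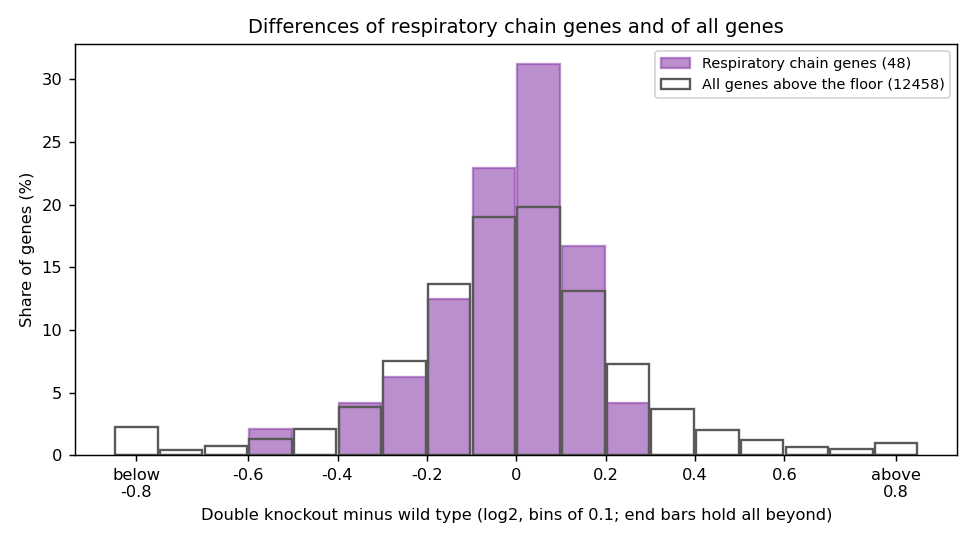
Share of genes in each bin of 0.1 of the log2 difference, double knockout minus wild type, for the 48 respiratory chain genes (filled) and for all 12458 genes that passed the floor (outline). The respiratory chain genes lie between -0.6 and 0.3, and 2.29% of all genes lie below -0.8 and 0.971% above 0.8, where the respiratory chain has no gene.

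The rest of the oxidative machinery was set beside these genes, as lists described by counts and medians alone. The assembly factors, which help build the complexes and are not part of them, were all within 0.32 of 0, 11 of complex I with a median of -0.02, 3 of complex II with -0.02 and 5 of complex III with 0.06. Timmdc1 and Bcs1l, which act in the assembly of complex I and complex III, differed by -0.02 and 0.18. The 9 ubiquitous subunits of complex IV were within 0.32 of 0 too, with a median of 0.09, and Cox6c differed by 0.03. Of the 9, 8 were above 0, where 50.8% of all genes were below it. The muscle isoform Cox6a2 was different, at 5.99 in the double knockout and 9.13 in the wild type, 8.83-fold lower. Its relatives Cox7a1 and Cox8b, which brown fat makes as well, differed by 0.26 and 0.30. Complex V, the ATP synthase, had a median of -0.09 over 18 genes. Of the 18, 15 were below 0, against 50.8% of all genes, and 2 were lower by 0.32 or more, against 9.49%. Atp5g1 read 10.47 in the double knockout and 11.12 in the wild type. Atp5g3, picked once its values had been seen, read 10.11 in the double knockout and 10.64 in the wild type. Both encode the membrane ring subunit c, and the other Atp5g1 probe set differed by -0.56. The 12 enzymes of the tricarboxylic acid cycle outside complex II were all above 0, where 50.8% of all genes were below it. Their median was 0.19. Idh3a, a subunit of the NAD-linked isocitrate dehydrogenase, read 10.22 in the double knockout and 9.90 in the wild type, 0.32 higher on the log2 scale. The 3 with the highest signal, Mdh2, Idh3g and Cs, differed by 0.18, 0.22 and 0.10. Whether any of these lists differs from the respiratory chain genes was not tested, since the design has 1 array per genotype.

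**Figure D4:**
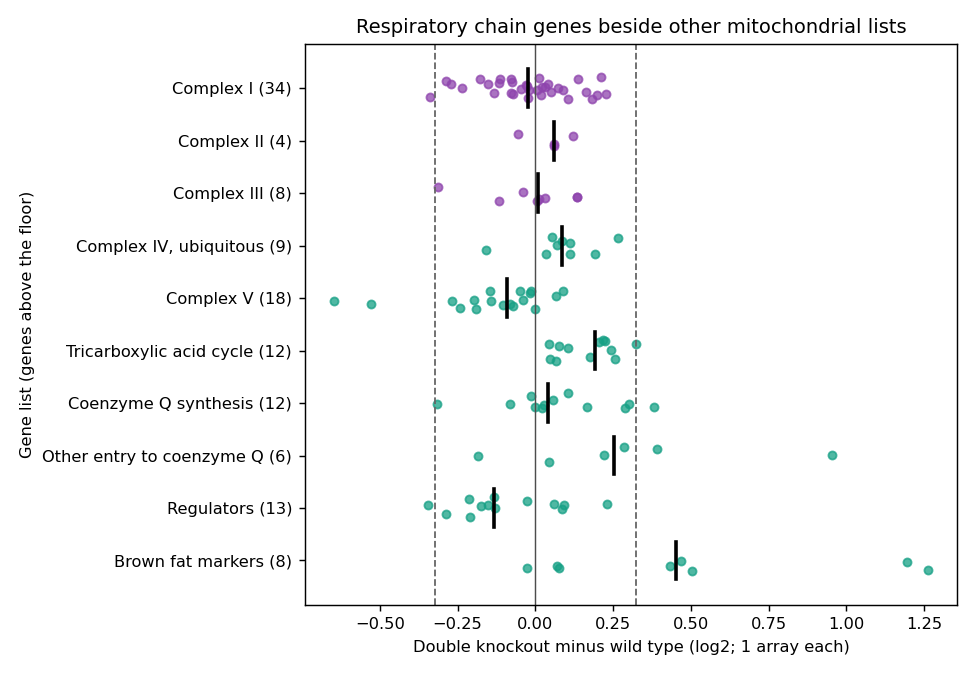
Differences of single genes, double knockout minus wild type on the log2 scale, for complexes I, II and III (purple) and other lists (green), with the number of genes above the floor in brackets, the median of each list as a black bar and dashed lines at -0.32 and 0.32. Medians of the lists drawn run from -0.13 in the regulators of mitochondrial genes to 0.45 in the brown fat markers, with complexes I, II and III at -0.02, 0.06 and 0.01.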

How the data were processed

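Total RNA of the fetal ear was hybridised to 1 array per genotype, and the deposited table gives a log2 signal per probe set, per the labels made with MAS5 (submitters' processing notes, no version). The logarithm's base was inferred from the values' range. For normalization between arrays, background correction and genome build, the methods are not given in the sources used.

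The deposited log2 values were used as they stand. Gene names came from the platform annotation, which can be old. It paired 21789 of 35557 probe sets with 1 gene, 1621 with several and 12147 with none. All 48 names of the respiratory chain genes were found in a RefSeq gene table of GRCm38.p6. Of several probe sets of a gene, the brightest by mean linear signal was used. Values below the 50th percentile of the array (5.70 in the double knockout, 5.65 in the wild type) were raised to it. Differences, double knockout less wild type on the log2 scale, were taken for 12458 genes past this floor on 1 array or both. They were counted at 0.32 (log2) and at 2-fold. The calculation was tested on simulated data.

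With 1 array per group there is no replicate, no test and no p-value, and precision is limited by the number of arrays. Probe sets of the same gene above the floor on both arrays differed with an SD of 0.168 (log2, 619 genes), which covers noise between probe sets and not the spread between animals. The respiratory chain genes and the other lists were chosen with earlier results of these data known. All respiratory chain genes could be named; of the other lists, the 3 genes of highest signal and the largest difference in each direction, and any other is said to have been chosen after its values were seen. Promoter windows are RefSeq's, 250 bases before to 50 after the start, on the strand of the gene. Python 3.11.15, pandas 2.3.3 and statsmodels 0.14.6 were used. The alternatives were 4 other scalings, other floors, a pseudocount, the median over probe sets and a threshold of 1.5-fold.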

Additional observations from a re-analysis of the deposited data

How the results depend on the processing

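The median difference of the 48 respiratory chain genes ran from -0.01 to 0.03 over the 9 alternatives that give one, and those of complexes I, II and III from -0.02 to 0.01, from 0.06 to 0.09 and from -0.01 to 0.03. The median of all genes ran from -0.02 to 0.03. Of 425 single values under these alternatives, 0 moved by more than the SD between probe sets of the same gene (0.168). Many of them could not move that far. All 48 genes lay above the floor, so having no floor, or a floor at the 25th percentile, changed no value. Equal medians of expressed probe sets and of ribosomal protein genes shifted every gene by the same amount, 0.022 and 0.004. The largest move was 0.130, with a pseudocount. The count of genes below 0 ran from 17 to 24, the lower end with the floor at the 75th percentile, which 41 of the 48 genes pass. The counts at 2-fold, and the count higher by 0.32 (log2), were 0 under all alternatives run. The count lower by 0.32, 2 as reported, was 1 with equal medians of expressed probe sets, 1 with the floor at the 75th percentile, 1 with a pseudocount and 0 at a threshold of 1.5-fold. Ndufa4l2 ran from -0.54 to -0.41 and stayed past 0.32, whereas Ndufb2 ran from -0.35 to -0.21. No paired analysis was possible because each genotype has 1 array. Signal near the floor limits the genes of low signal most.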

Other observations

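Of 13 genes that regulate mitochondrial genes, 9 were below 0, where 50.8% of all genes were, and the median of the 13 was -0.13. The SD of 0.168 between probe sets of the same gene is for single differences and gives no scale for this median. Ppargc1b, a coactivator of mitochondrial genes, read 7.04 in the double knockout and 7.38 in the wild type, 1.27-fold lower, and was the 1 gene of the 13 past 0.32 by the brightest probe set, where 9.49% of all genes were lower by that much. Esrrg, an estrogen-related receptor, was at the other end, with 6.64 in the double knockout and 6.41 in the wild type. Yy1, Gabpa and Polrmt, the 3 of highest signal, differed by -0.18, -0.13 and 0.09. Ppargc1a, Nrf1 and Tfam, named after their values were seen, differed by -0.03, 0.09 and -0.21. The other probe set of Ppargc1a read 6.49 in the double knockout and 7.06 in the wild type, a difference of -0.57, so the value for this gene rests on the probe set chosen.

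Enzymes that hand electrons to coenzyme Q by routes other than complexes I and II had a median of 0.25 over 6 genes. Of these, 2 were higher by 0.32 or more, against 7.99% of all genes, and 0 were lower, against 9.49%. Gpd2, the mitochondrial glycerol-3-phosphate dehydrogenase, read 8.82 in the double knockout and 7.86 in the wild type, 1.94-fold higher. Etfb, a subunit of the electron transfer flavoprotein of fatty acid oxidation, read 10.98 in the double knockout and 10.59 in the wild type, and its partners Etfdh and Etfa differed by 0.28 and 0.22. Brown fat, with 5 of 8 markers higher by 0.32 or more on the same array, is known for a high level of Gpd2. Its part in these values was not tested. The 12 genes of coenzyme Q synthesis and its helpers had a median of 0.04, from -0.31 in Coq10a to 0.38 in Coq4.

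Of 35557 probe sets deposited, 1227 had exactly the same value on both arrays, and 0 of the 48 genes did.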
